A study of Macaca mulatta with 15 samples.

Results

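Naive T cells circulate in a resting state that is held by a small set of transcription factors and by receptors that keep the cells moving between blood and lymph nodes. The 9 genes described here are of that kind: the transcription regulators TCF7, LEF1, BACH2, SATB1, FOXP1, ID3, KLF2 and KLF3, and the receptor S1PR1. They were taken by symbol from a table of 34884 genes. The set was chosen with earlier results of these data known, so counts within it are descriptions. All 9 had a row and passed the filter on low counts that left 14814 genes for testing.

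RNA was sequenced from blood T cells of healthy rhesus macaques in 15 libraries, from 2 animals called RhM22 and RhDBCb. The after libraries followed daily 2-hydroxypropyl-beta-cyclodextrin (Kleptose), a sugar ring that binds cholesterol, injected under the skin at 1 ml/kg/day as a 15% (w/w) solution for up to 120 days. The before libraries came from the same animals untreated, so no animal was followed without the compound. At each time the cells were CD8 memory, CD8 naive, CD4 memory or CD4 naive, and how these were separated is not given in the sources used here. Of the 8 combinations of subset and time 7 held 1 library from each animal, and CD8 naive cells after treatment were those of RhM22, with those of RhDBCb not analysed here.

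As background, TCF7 and its relative LEF1 are DNA-binding partners of beta-catenin that build the T cell lineage in the thymus and stay on in naive and long-lived memory cells. BACH2, FOXP1 and SATB1 are, in mice, brakes on effector genes or organisers of the chromatin they sit in, and KLF2 holds lymphocytes at rest and drives S1PR1, the receptor through which they leave lymph nodes. Effector differentiation is known to go with lower levels of several of these genes. They are followed here in memory against naive cells, in CD8 against CD4 cells and after against before treatment.

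The libraries held 44414963 to 71787211 counts and 13525 to 15445 detected genes. Lineage markers went with the labels, with CD4 at most 1.68 CPM in CD8 libraries and CD8A at most 3.93 CPM in CD4 libraries. CPM are counts per 1000000 of a library total scaled with TMM factors. Memory markers went with the memory and naive labels. All 4 of the 4 tested memory markers were higher in CD8 memory than in CD8 naive cells, and 3 of 4 in CD4 memory than in CD4 naive cells, among them S100A4 at log2 fold changes of 3.72 and 4.05. The 4 before libraries of RhDBCb stood apart in the sum of 10 immediate early genes, which cells switch on within minutes of handling or stimulation. The sum was 10829.8 to 30030.4 CPM there, against 5102 to 9286 CPM in the other 11 libraries. It rested largely on FOS and DUSP1, which reached 13066.5 and 12722.8 CPM in CD4 naive cells. Of the 10 genes, 3 were called lower and 1 higher after than before in RhDBCb, and 3 had a log2 fold change above 0. Some of the results that use these 4 libraries are therefore also given without them, and the others were not reported in that form.

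**Figure D1:**
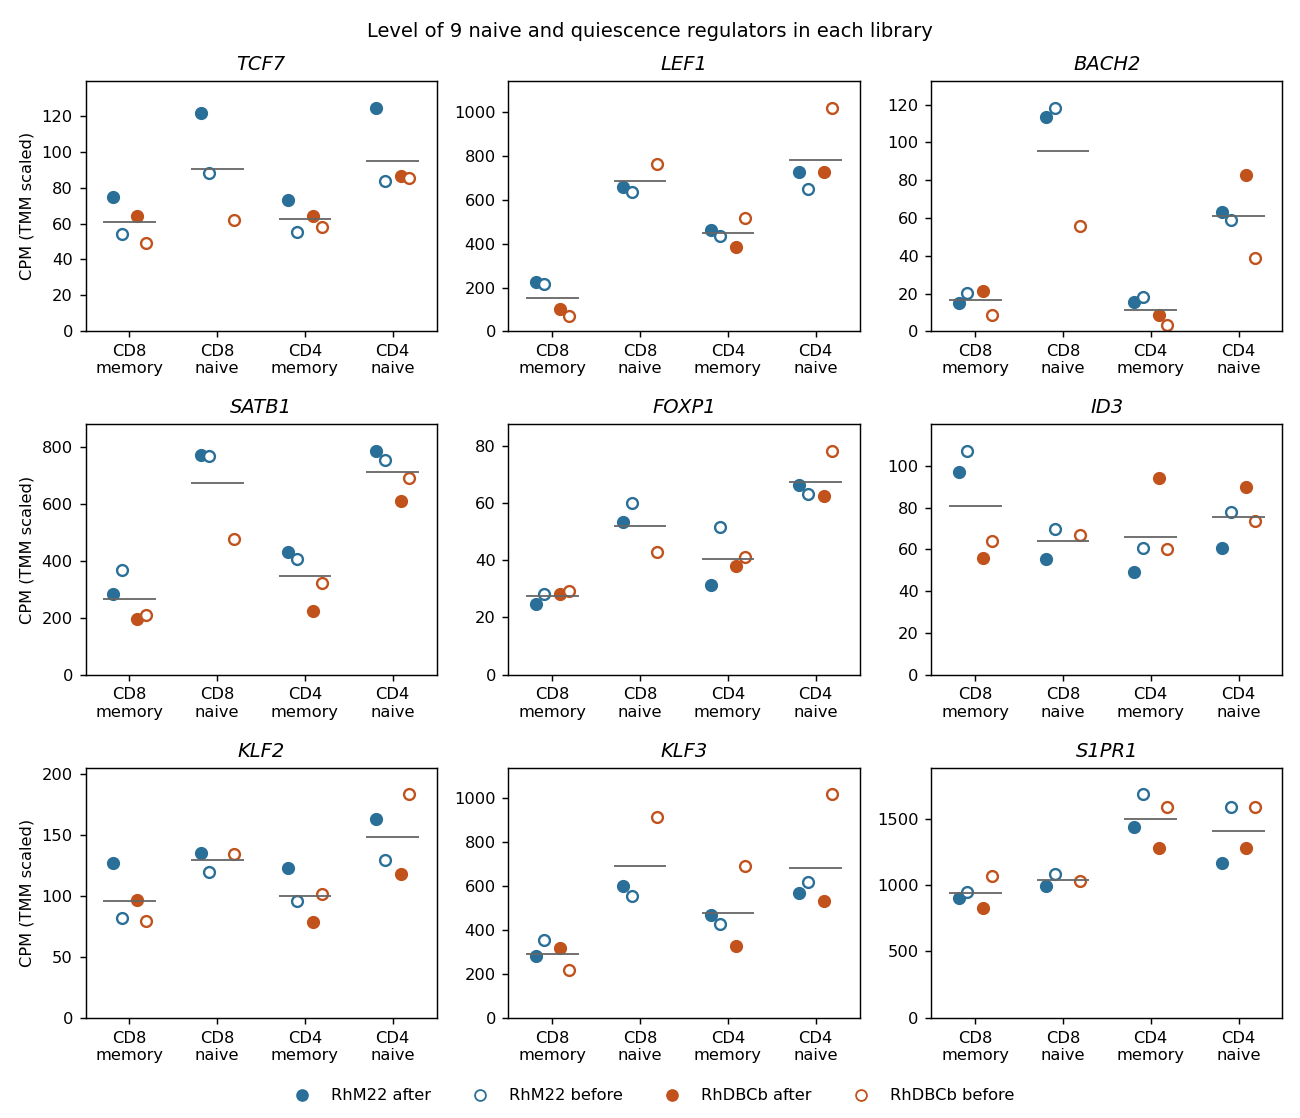
Level of each of the 9 genes (CPM, linear axis) in the 15 libraries by subset, with filled points after and open points before treatment, blue for RhM22 and orange for RhDBCb; the grey line is the mean of a subset's libraries. LEF1, BACH2, SATB1 and FOXP1 lie lower in memory than in naive cells of both lineages with no overlap, and no CD8 library reaches the S1PR1 level of any CD4 library.

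Several of the 9 genes were lower in memory than in naive cells, more of them in the CD8 than in the CD4 lineage. In CD8 cells 5 of the 9 genes fell in memory relative to naive cells, LEF1, BACH2, SATB1, FOXP1 and KLF3, where 8.4% of all genes tested were called and 3.1% were called lower. In CD4 cells 3 of the 9 fell, BACH2, SATB1 and FOXP1, where 5.6% of all genes were called and 1.71% were called lower. In CD8 cells the 5 called genes lay lower in memory cells with no overlap between the libraries, as did 9.6% of all genes. In CD4 cells TCF7, LEF1, BACH2, SATB1 and FOXP1 did, as did 4.35% of all genes. None of the 9 was called higher in either lineage, where 5.31% of all genes were in CD8 and 3.89% in CD4 cells. The median log2 fold change of memory over naive was -0.92 for the 9 genes in CD8 cells, beside 0.05 over all genes, and -0.59 for the 9 genes in CD4 cells, beside -0.02 over all genes. These are bulk libraries, in which fewer cells with a transcript and less of it per cell cannot be told apart.

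BACH2 (ENSMMUG00000009736), a repressor of effector genes, had the widest gap. In CD8 memory cells it stood at 21.2 and 8.71 CPM in RhDBCb after and before treatment, and at 15.2 and 20.5 CPM in RhM22 after and before. In CD8 naive cells it stood at 113.3 and 118.3 CPM in RhM22 after and before, and at 55.6 CPM in RhDBCb before. Every CD8 memory library lay below every CD8 naive library, and the log2 fold change was -2.37 (SE 0.43, adjusted p = 0.00637).

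In CD4 memory cells BACH2 was at 8.50 and 3.37 CPM in RhDBCb after and before, and 15.5 and 17.9 CPM in RhM22 after and before. In CD4 naive cells it was at 82.6 and 38.7 CPM in RhDBCb after and before, and 63.1 and 59.0 CPM in RhM22 after and before. The groups again did not overlap, and within CD4 memory cells both libraries of RhM22 were above both of RhDBCb. The log2 fold change was -2.57 (SE 0.40, adjusted p = 0.00331). BACH2 is also a gene of B cells, whose part in the difference was not tested. A list of 5 B cell genes summed to 26.3 to 37.9 CPM in CD8 memory libraries and 61.3 to 111.6 CPM in CD8 naive libraries, and to 15.3 to 22.5 CPM in CD4 memory libraries and 20.9 to 27.3 CPM in CD4 naive libraries. Most of the CD8 naive sum was CD79A, at 50.0 to 102.5 CPM, with CD79B at 4.85 to 11.2 CPM, while MS4A1 was at most 1.71 CPM and CD22 at most 0.38 CPM in those libraries.

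SATB1 (ENSMMUG00000019009), a chromatin organiser of developing and naive T cells, showed the same order with less spread. Its level in CD8 memory cells was 197 and 209.9 CPM in RhDBCb after and before and 284 and 369 CPM in RhM22 after and before. CD8 naive cells had 772 and 769.6 CPM in RhM22 after and before, and 475 CPM in RhDBCb before. In CD8 cells the fold change was -1.28 on the log2 scale (SE 0.18, adjusted p = 0.00179).

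CD4 memory cells had 223 and 322 CPM of SATB1 in RhDBCb after and before and 430.2 and 407 CPM in RhM22 after and before. CD4 naive cells had 611 and 692 CPM in RhDBCb after and before and 785 and 755 CPM in RhM22 after and before. No memory library reached a naive library of its lineage, and RhM22 was above RhDBCb in all 7 subset and time groups that held both animals. The log2 fold change in CD4 cells was -1.08 (SE 0.17, adjusted p = 0.003).

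FOXP1 (ENSMMUG00000002889), which in mice keeps naive T cells quiescent, was lower by less. It averaged 27.7 ± 1.99 CPM in CD8 memory cells (SD, n = 4) and 52.2 ± 8.81 CPM in CD8 naive cells (n = 3), with 24.8 to 29.4 CPM in CD8 memory libraries against 42.8 to 60.2 CPM in CD8 naive libraries. It averaged 40.4 ± 8.49 CPM in CD4 memory cells (n = 4) and 67.6 ± 7.34 CPM in CD4 naive cells (n = 4), with 31.2 to 51.6 CPM against 62.4 to 78.3 CPM. The log2 fold changes were -0.92 in CD8 cells (SE 0.20, adjusted p = 0.0168) and -0.76 in CD4 cells (SE 0.18, adjusted p = 0.0324), with no overlap in either lineage. The calls of BACH2 and SATB1 held in every fit that left out 1 library. In CD4 cells neither passed with before libraries only (adjusted p = 0.08 for BACH2 and 0.0756 for SATB1), and SATB1 did not pass without the animal as a block (0.115). FOXP1 was not called in CD8 (adjusted p = 0.105) or CD4 cells (0.379) with before libraries only, or in CD4 cells without the block (0.0997). In CD4 cells FOXP1 was no longer called when any 1 of 7 of the 8 CD4 libraries was left out, with an adjusted p of 0.0668 to 0.164, and without the 4 before libraries of RhDBCb its adjusted p was 0.232. In CD8 cells it was no longer called without the CD8 memory library of RhM22 before (adjusted p = 0.0526) or after (0.0524).

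LEF1 (ENSMMUG00000023256) fell in CD8 memory cells. It stood there at 100.04 and 72.1 CPM in RhDBCb after and before, and at 225 and 218 CPM in RhM22 after and before. CD8 naive cells had 661 and 638 CPM in RhM22 after and before, and 763 CPM in RhDBCb before. The groups lay far apart, the RhM22 memory libraries were above the RhDBCb ones at both times, and the log2 fold change was -2.15 (SE 0.35, adjusted p = 0.00357), a call held in every fit that left out 1 library. Natural killer cells are another source of CD8 lineage RNA: a list of 4 of their genes summed to 19.9 to 63.8 CPM in CD8 memory libraries and 4.87 to 12.3 CPM in CD8 naive libraries. KLRF1 was at 19.1 to 61.9 CPM in CD8 memory libraries and 4.15 to 8.99 CPM in CD8 naive libraries, with NCR1 at most 2.06 CPM, SH2D1B at most 1.56 CPM and FCER1G at most 0.23 CPM in any CD8 library. The 2 RhM22 memory libraries, which had the higher LEF1, also had the higher sums, at 63.8 CPM after and 62.7 CPM before. The part of natural killer cells in the LEF1 difference was not tested.

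In CD4 memory cells LEF1 was at 387 and 517 CPM in RhDBCb after and before and 462 and 434 CPM in RhM22 after and before. In CD4 naive cells it was at 727 and 1021 CPM in RhDBCb after and before and 727 and 652 CPM in RhM22 after and before. The CD4 groups did not overlap either, but the log2 fold change of -0.81 did not pass (SE 0.32, adjusted p = 0.186). TCF7 (ENSMMUG00000022788), the other factor of the pair, averaged 60.7 ± 11.4 CPM in CD8 memory cells (n = 4) and 90.6 ± 29.7 CPM in CD8 naive cells (n = 3), and 62.6 ± 8.04 CPM in CD4 memory cells (n = 4) and 95.0 ± 19.6 CPM in CD4 naive cells (n = 4). It did not pass, at -0.61 in CD8 cells (SE 0.18, adjusted p = 0.0573) and -0.59 in CD4 cells (SE 0.16, adjusted p = 0.0536), and DESeq2 called it lower in CD8 memory (adjusted p = 0.0142) and CD4 memory cells (adjusted p = 0.00887), where it called 17.2% and 12.3% of the genes to which it gave an adjusted p.

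**Figure D2:**
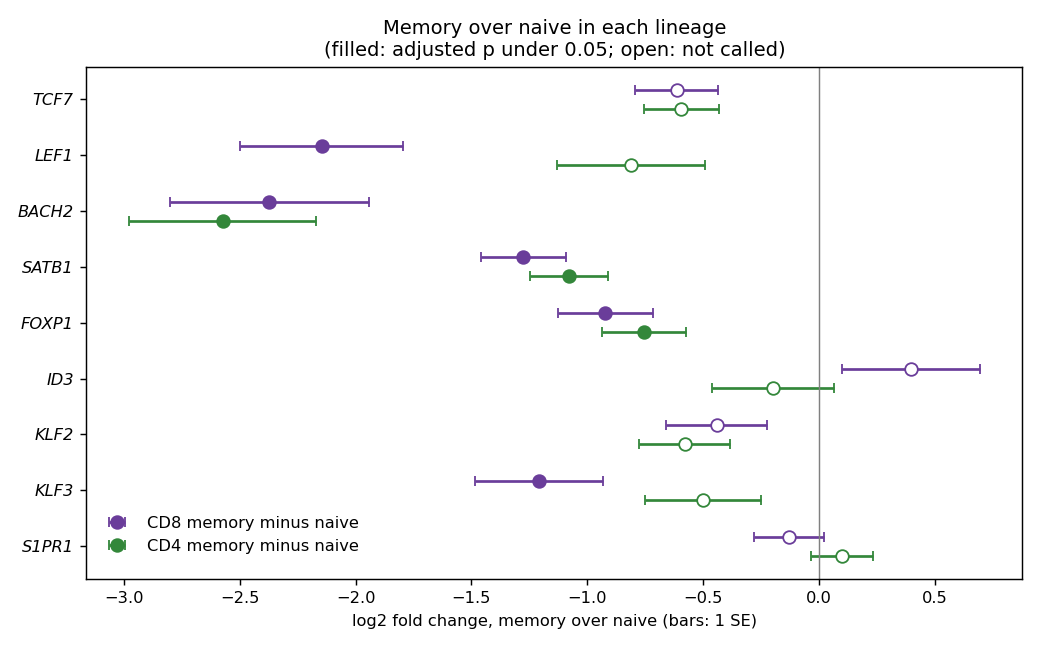
Log2 fold change of memory over naive cells for the 9 genes, CD8 in purple above CD4 in green, with bars of 1 SE and filled points for an edgeR adjusted p under 0.05. BACH2 is near -2.5 in both lineages, and LEF1 is at -2.15 in CD8 and -0.81 in CD4 cells. ID3 is at 0.40 in CD8 and -0.20 in CD4 cells, and S1PR1 at -0.13 and 0.10.

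The Krüppel-like factors differed from each other. KLF3 (ENSMMUG00000003363), a repressor that works with CTBP corepressors, fell in CD8 memory cells (log2 fold change -1.21, SE 0.28, adjusted p = 0.0195). Its level there was 317 and 217 CPM in RhDBCb after and before and 279.8 and 352 CPM in RhM22 after and before. CD8 naive cells had 601 and 554 CPM in RhM22 after and before, and 913 CPM in RhDBCb before. The highest of the 3 naive values came from the before draw of RhDBCb, and so did the lowest memory value. KLF3 was no longer called without the RhDBCb before library of CD8 naive cells (adjusted p = 0.0948) or of CD8 memory cells (0.0612), without the RhM22 after library of CD8 memory cells (0.0608), or without all 4 before libraries of RhDBCb, where the log2 fold change was -0.81 (adjusted p = 0.0907). Nor did it pass with before libraries only (0.0681) or without the block (0.0635). In CD4 cells KLF3 was at -0.50 (SE 0.25, adjusted p = 0.304).

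KLF2 (ENSMMUG00000028855) averaged 96.2 ± 21.8 CPM in CD8 memory cells (n = 4) and 129.7 ± 8.82 CPM in CD8 naive cells (n = 3), and 99.7 ± 18.2 CPM in CD4 memory cells (n = 4) and 148.6 ± 30.2 CPM in CD4 naive cells (n = 4). Its ranges overlapped in both lineages, and the log2 fold changes of -0.44 in CD8 (SE 0.22, adjusted p = 0.256) and -0.58 in CD4 cells (SE 0.20, adjusted p = 0.122) did not pass. In each of the 7 draws and lineages that allow the comparison, the memory library was nonetheless below the naive library of the same animal and time for KLF2, as it was for TCF7, LEF1, BACH2, SATB1, FOXP1 and KLF3. Of all genes tested, 23.4% were lower in memory in all 3 CD8 draws and 18.4% in all 4 CD4 draws.

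ID3 and S1PR1 did not follow the other 7. ID3 (ENSMMUG00000043586) blocks DNA binding by E proteins and, in mice, marks CD8 cells bound for long-lived memory. It ranged from 55.7 to 107.05 CPM in CD8 memory cells and 55.5 to 69.9 CPM in CD8 naive cells, and from 49.2 to 94.4 CPM in CD4 memory cells and 60.9 to 89.8 CPM in CD4 naive cells, with overlap in both lineages. Its log2 fold change was 0.40 in CD8 (SE 0.30, adjusted p = 0.471) and -0.20 in CD4 cells (SE 0.26, adjusted p = 0.759). S1PR1 (ENSMMUG00000042059) was at -0.13 in CD8 (SE 0.15, adjusted p = 0.677) and 0.10 in CD4 cells (SE 0.13, adjusted p = 0.765). It averaged 938 ± 101 CPM in CD8 memory cells (n = 4) and 1036 ± 44.6 CPM in CD8 naive cells (n = 3), and 1499 ± 175 CPM in CD4 memory cells (n = 4) and 1405 ± 215 CPM in CD4 naive cells (n = 4). S1PR1 is a textbook target of KLF2, and neither passed in either lineage.

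Whether the memory difference itself was of another size in CD8 than in CD4 cells was tested as an interaction, for which 0.0203% of all genes were called by edgeR and 0.738% by DESeq2. None of the 9 genes passed in edgeR or in DESeq2, and 1 of them, LEF1, had an unadjusted p under 0.05. Its memory-over-naive value was lower in CD8 than in CD4 cells, with an interaction of -1.34 on the log2 scale (SE 0.47, adjusted p = 0.861). KLF3 was next at -0.71 (SE 0.37, adjusted p = 1). BACH2 was at 0.20 (SE 0.59) and SATB1 at -0.20 (SE 0.25). The larger number of calls in CD8 cells is therefore not shown to be a difference between the lineages for any of the 9.

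Between the lineages at the same stage, 2 of the 9 genes were called in memory cells and none in naive cells. Neither of the 2 passed the interaction above, where S1PR1 was at -0.23 (SE 0.20), so a difference between the stages is not shown. LEF1 and S1PR1 were lower in CD8 memory than in CD4 memory cells, in a comparison that called 4.07% of all genes and 1.46% in that direction. S1PR1 stood at 831 and 1070.4 CPM in CD8 memory cells of RhDBCb after and before, and at 899.7 and 950.5 CPM in those of RhM22. CD4 memory cells had 1282 and 1589.7 CPM in RhDBCb after and before, and 1441 and 1682.5 CPM in RhM22 after and before. No CD8 library reached the lowest CD4 library, and the log2 fold change was -0.67 (SE 0.13, adjusted p = 0.0157).

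LEF1 in CD8 memory against CD4 memory cells was at -1.61 on the log2 scale (SE 0.33, adjusted p = 0.018), with 72.1 to 225 CPM in CD8 memory libraries and 387 to 517 CPM in CD4 memory libraries. Both calls depended on single libraries. Leaving out any 1 of 5 of the 8 memory libraries ended the call of LEF1 (adjusted p = 0.052 to 0.0791) and any 1 of 6 of them that of S1PR1 (0.0513 to 0.0883), and without the 4 before libraries of RhDBCb LEF1 was at -1.23 (adjusted p = 0.051) and S1PR1 at -0.74 (adjusted p = 0.0671). Without the animal as a block neither passed (LEF1 0.0711, S1PR1 0.0734). LEF1, S1PR1 and FOXP1 lay lower in CD8 memory than in CD4 memory cells with no overlap, as did 4.24% of all genes. FOXP1 was at -0.53 (SE 0.18, adjusted p = 0.152). BACH2 pointed the other way, at 0.67 (SE 0.38, adjusted p = 0.459).

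In CD8 naive against CD4 naive cells edgeR called 1.67% of all genes and DESeq2 4.1%, and neither called any of the 9, with 1 of the 9 at an unadjusted p under 0.05. That gene was S1PR1 (log2 fold change -0.45, SE 0.15, adjusted p = 0.292). It was at 993 to 1082 CPM in CD8 naive libraries and 1167 to 1589 CPM in CD4 naive libraries without overlap. FOXP1 did not overlap either, and was at -0.36 (SE 0.21, adjusted p = 0.714). Of all genes, 3.96% lay lower in CD8 naive than in CD4 naive cells with no overlap. The highest mean of BACH2 was in CD8 naive cells (95.7 ± 34.9 CPM, n = 3), above CD4 naive cells (60.8 ± 18.0 CPM, n = 4) in all 3 draws with both, but the difference of 0.47 had an SE of 0.43 (adjusted p = 0.907). Over the 4 subsets, BACH2, SATB1 and FOXP1 differed past the test between memory and naive cells of both lineages, S1PR1 between CD8 and CD4 memory cells, and LEF1 between CD8 memory and both CD8 naive and CD4 memory cells. The order of the lineages at the same stage did not pass the test for BACH2, SATB1 or FOXP1.

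Other genes of the same programme were read from lists beside the 9. Of 20 tested naive T cell genes 7 were lower in CD8 memory than CD8 naive cells and 6 in CD4 memory than CD4 naive cells. Of all genes 3.1% and 1.71% were called lower there. None of the 20 was higher, and their medians were -0.89 and -0.74. The 20 include MAL, TRABD2A, EPHX2, AIF1 and FHIT, which averaged only 0.05 to 0.42 CPM. TMIGD2, a costimulatory receptor of naive T cells, was at -2.99 in CD8 (SE 0.29, adjusted p = 0.000398) and -3.72 in CD4 cells (SE 0.29, adjusted p = 0.000125). PIK3IP1, an inhibitor of PI3 kinase, was at -2.42 in CD8 (SE 0.25) and -1.44 in CD4 cells (SE 0.23). CCR7, the lymph node homing chemokine receptor, did not pass, at -0.89 in CD8 (adjusted p = 0.0568) and -0.51 in CD4 cells (adjusted p = 0.262).

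Quiescence genes moved less. Of 24 tested, 2 were lower in CD8 memory cells, TXNIP (-1.49, SE 0.23), which restrains glucose uptake, and the antiproliferative BTG1 (-0.82, SE 0.15). In CD4 memory cells 3 were lower, with PDCD4, an inhibitor of translation, at -0.88 (SE 0.22) and TXNIP at -0.87 (SE 0.20). The medians of the list were 0.0031 in CD8 and -0.15 in CD4 cells. FOXO1, which in mice drives KLF2, was at -0.50 in CD8 (adjusted p = 0.266) and -0.51 in CD4 cells (adjusted p = 0.231).

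Effector and memory regulators went the other way. Of 19 tested, 13 were higher in CD8 memory cells and 11 in CD4 memory cells, with medians of 1.80 and 1.18. MAF was higher in CD8 memory cells by 3.30 (SE 0.65). In CD4 cells HOPX (4.30, SE 0.50) and TBX21 (3.43, SE 0.33), the T-bet factor of type 1 effector cells, had the largest changes of the list. ID2, a relative of ID3 known from effector cells in mice, was the 1 list member lower in CD4 memory cells (-0.91, SE 0.19, adjusted p = 0.0179), and was at 0.02 in CD8 cells (SE 0.22).

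Relatives of the 9 genes did not share one direction. Of 21 tested paralogs 4 were higher and 1 lower in CD8 memory cells, and 2 higher and 1 lower in CD4 memory cells. KLF10 rose in memory cells of both lineages (1.68, SE 0.35, in CD8 and 1.24, SE 0.29, in CD4), opposite in sign to KLF2 and KLF3, while KLF7 fell in CD8 memory cells (-1.20, SE 0.24). S1PR5, a related receptor of effector and natural killer cells, rose in CD8 memory cells (2.59, SE 0.60, adjusted p = 0.0208) where S1PR1 did not pass. FOXP3, the factor of regulatory T cells, rose in CD4 memory (2.32, SE 0.39) and CD8 memory cells (1.74, SE 0.46). Of 25 tested cofactors and enzymes that work with the 9, TLE1, a corepressor that TCF7 and LEF1 recruit, was lower in CD8 memory (-2.17, SE 0.39, adjusted p = 0.00645) and CD4 memory cells (-2.10, SE 0.37, adjusted p = 0.00644). The E protein TCF3 was lower in CD8 memory cells (-1.16, SE 0.27), and CD69, which holds S1PR1 off the surface, did not pass in either lineage.

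**Figure D3:**
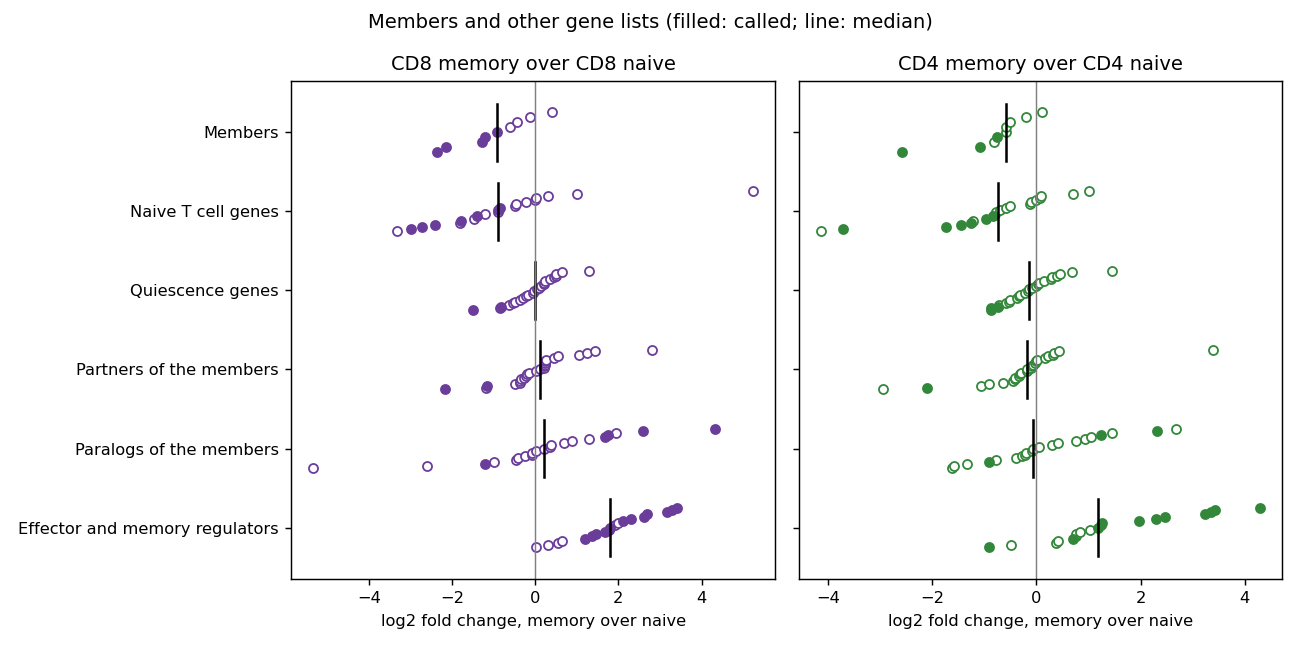
Log2 fold change of memory over naive in CD8 cells (left) and CD4 cells (right) for the 9 genes and 5 other lists, with 1 point per tested gene, filled where called, and a black line at the median. In CD8 cells the medians are -0.92 for the 9 genes, 1 of which lies above 0, -0.89 for the 20 naive T cell genes, 4 of which do, and 1.80 for the effector and memory regulators.

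Across the 15 libraries the 9 genes varied together to different degrees. Pearson's r of log2 CPM was highest for LEF1 with KLF3 (0.88), SATB1 with FOXP1 (0.83) and SATB1 with LEF1 (0.83), while ID3 had an r of -0.22 to -0.01 with the other 7 regulators and S1PR1 ranged from -0.18 with BACH2 to 0.53 with FOXP1. These values describe 15 libraries that share 2 animals, 4 draws and 4 subsets. Among 8289 named genes of sufficient level the closest to LEF1 were BCL2 (r = 0.96), which protects against cell death, and SAYSD1 (0.95). Closest to SATB1 were BEX2 (0.96) and CELF1 (0.96), to BACH2 RFTN1 (0.95) and RHOBTB1 (0.95), to KLF3 C15H9orf72 (0.95) and FAM117B (0.94), and to FOXP1 the protease gene CTSH (0.93) and the kinase gene PLK2 (0.91). TCF7 lay closest to LRCH4 (0.92) and REPIN1 (0.87), KLF2 to ZBTB21 (0.88) and RIPOR2 (0.87), and S1PR1 to GPRIN3 (0.90) and HINT1 (0.90). No gene came as close to ID3, for which AHSA1 (0.75) and PPP2R1A (0.74) led. CTSH, as FOXP1's nearest match, averaged 27.6 CPM in CD8 memory cells and 79.7 CPM in CD8 naive cells, and 57.5 CPM in CD4 memory cells and 133.0 CPM in CD4 naive cells.

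After against before treatment, the question the study posed, none of the 9 genes passed edgeR's test over all subsets and both animals, in a comparison that called 0.00675% of all genes in edgeR and 1.73% in DESeq2. TCF7 and S1PR1 had an unadjusted p under 0.05 and were the 2 that DESeq2 called. The 15 libraries came from 4 draws of 2 animals, and both tests treat them as independent. These p-values, and the 7 pairs below, therefore measure little of the spread from draw to draw. On the log2 scale TCF7 was at 0.38 (SE 0.10, edgeR adjusted p = 0.323, DESeq2 adjusted p = 0.0294). S1PR1 was at -0.26 (SE 0.08, edgeR adjusted p = 0.373, DESeq2 adjusted p = 0.0462). The median of the 9 genes was -0.10, beside 0.01 over all genes.

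TCF7 was higher after than before in 7 of 7 pairs of the same animal and subset, as were 2.02% of all genes. In CD8 memory cells it had 64.4 against 49.4 CPM after and before in RhDBCb and 74.9 against 54.0 CPM in RhM22, and in CD8 naive cells of RhM22 121.5 against 88.1 CPM. In CD4 memory cells it had 64.2 against 58.0 CPM in RhDBCb and 73.3 against 55.1 CPM in RhM22, and in CD4 naive cells 86.2 against 85.5 CPM in RhDBCb and 124.5 against 84.0 CPM in RhM22. The 4 pairs of RhM22 spanned 0.41 to 0.57 on the log2 scale and the 3 of RhDBCb 0.01 to 0.38, so the smaller differences were those of RhDBCb.

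S1PR1 was lower after than before in 7 of 7 pairs, as were 1.88% of all genes. CD4 naive cells had 1279 against 1589 CPM after and before in RhDBCb and 1167 against 1584 CPM in RhM22, and CD8 naive cells of RhM22 had 993 against 1082 CPM. The memory values after and before are those given above, and the differences over the 7 pairs ran from -0.44 to -0.08 on the log2 scale. Among the other 7 genes the pairs disagreed: FOXP1 was lower in 6 of 7, LEF1 and KLF2 higher in 5, ID3 lower in 5, BACH2 higher in 4, and SATB1 and KLF3 lower in 4. Their log2 fold changes over all pairs lay between -0.29 for KLF3 (SE 0.18) and 0.44 for BACH2 (SE 0.26), with adjusted p of 0.572 to 0.969.

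**Figure D4:**
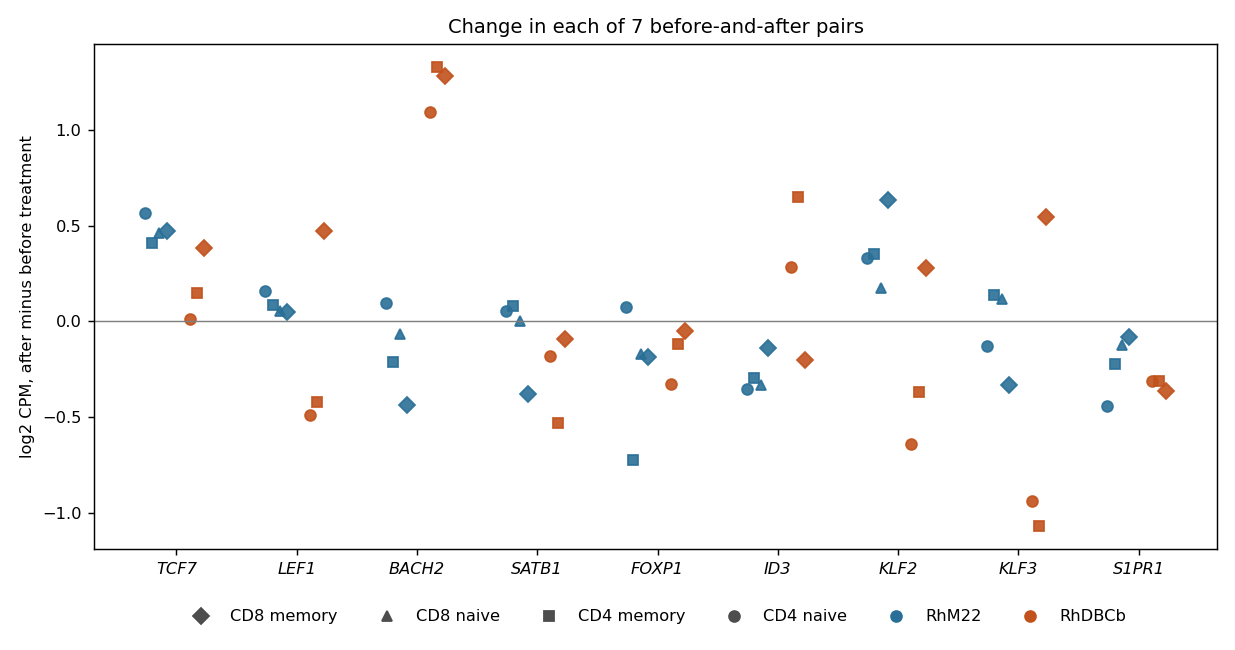
Log2 CPM after minus before treatment in each of 7 pairs, blue for RhM22 and orange for RhDBCb, with the symbol giving the subset. TCF7 lies above 0 and S1PR1 below 0 in all 7 pairs, and BACH2 separates the animals, with the 4 RhM22 pairs at -0.43 to 0.10 and the 3 RhDBCb pairs at 1.09 to 1.33.

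Within CD8 memory, CD4 memory or CD4 naive cells edgeR called none of the 9 and 0% of all genes, with 216, 230 and 603 of all genes but none of the 9 at an unadjusted p under 0.05. DESeq2 called none of the 9 there, and at most 0.0608% of all genes. The 2 values farthest from 0 in each subset were BACH2 at 0.53 (SE 0.54) and KLF2 at 0.46 (SE 0.28) in CD8 memory cells, KLF3 at -0.45 (SE 0.36) and FOXP1 at -0.42 (SE 0.26) in CD4 memory cells, and BACH2 at 0.70 (SE 0.54) and KLF3 at -0.55 (SE 0.35) in CD4 naive cells. CD8 naive cells had 1 pair and no such test. None of the 20 naive T cell, 24 quiescence, 19 effector, 21 paralog or 25 partner genes tested passed over all subsets either.

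The 2 animals were then read apart, since they moved differently: the term for animal by time, taken as RhM22 minus RhDBCb, was called in 4.58% of all genes by edgeR and 11.3% by DESeq2. None of the 9 passed it in edgeR, 2 had an unadjusted p under 0.05, and DESeq2 called those 2, BACH2 and KLF2. The change of BACH2 was lower in RhM22 than in RhDBCb (log2 difference -1.33, SE 0.37, edgeR adjusted p = 0.0594, DESeq2 adjusted p = 0.00921). That of KLF2 was higher in RhM22 by 0.65 (SE 0.22, edgeR adjusted p = 0.105, DESeq2 adjusted p = 0.0434). In this test and in those within animals below, libraries of the same animal and time shared a draw. The spread from draw to draw was therefore not measured.

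In RhM22 none of the 9 was called in edgeR, where 0.0608% of all genes were, and 2 had an unadjusted p under 0.05. TCF7 was at 0.48 (SE 0.12, adjusted p = 0.279) and was called by DESeq2 (adjusted p = 0.0205), which called 1.67% of all genes there. KLF2 was at 0.38 (SE 0.14, adjusted p = 0.586), with 127 against 81.6 CPM after and before in CD8 memory cells, 135.0 against 119.5 in CD8 naive, 123 against 96.0 in CD4 memory and 163 against 129.7 in CD4 naive cells. All 4 pairs of RhM22 were higher after, whereas in RhDBCb CD8 memory cells had 96.8 against 79.7 CPM, CD4 memory cells 78.7 against 101.4 CPM and CD4 naive cells 118.0 against 183.6 CPM.

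In RhDBCb 1 of the 9 genes (11.1%) was called, close to the 10.1% of all genes called there, of which 5.49% were called higher and the rest lower. BACH2 was higher after than before by 1.17 on the log2 scale (SE 0.28, adjusted p = 0.0194), with the values per library given above, and higher in all 3 pairs. The call ended without the CD4 naive after library (adjusted p = 0.139) or the CD8 memory after library (0.0731) of this animal. Its RhDBCb libraries were subsets of 1 draw before and 1 draw after, and the adjusted p does not cover the spread from draw to draw. Whether the BACH2 difference is more than a shift of a whole draw was not tested. In RhM22 BACH2 was at -0.16 (SE 0.25). KLF3 and S1PR1 had an unadjusted p under 0.05 in RhDBCb without passing, KLF3 at -0.60 (SE 0.24, adjusted p = 0.144) and S1PR1 at -0.30 (SE 0.11, adjusted p = 0.104).

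In the before draw of RhDBCb the summed immediate early level was the highest of its subset in all 4 libraries. It was 10829.8 CPM in CD8 memory, 20161 in CD8 naive, 15653 in CD4 memory and 30030.4 in CD4 naive cells. KLF3 had the same order within the draw, at 217, 913, 688 and 1016 CPM. Its CD4 naive, CD8 naive and CD4 memory values were the highest of their subsets, but its CD8 memory value was the lowest. KLF2 was highest of all 15 libraries in the CD4 naive cells of the draw. In its CD8 memory cells KLF2 was the lowest of the subset, at 79.7 CPM. BACH2 was lowest of its subset in all 4 and did not keep the order of the sum, at 8.71, 55.6, 3.37 and 38.7 CPM. Platelet transcripts also differed, at 13.3 to 25.9 CPM summed over 7 genes in the 3 after libraries of RhDBCb, against 2.07 to 4.07 CPM in its 4 before libraries. The part of platelet or immediate early transcripts in the differences between after and before was not tested. Without the 4 libraries no change in RhDBCb can be computed, and the after-minus-before term, which then rests on the pairs of RhM22, was -0.16 for BACH2 (adjusted p = 0.891).

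**Figure D5:**
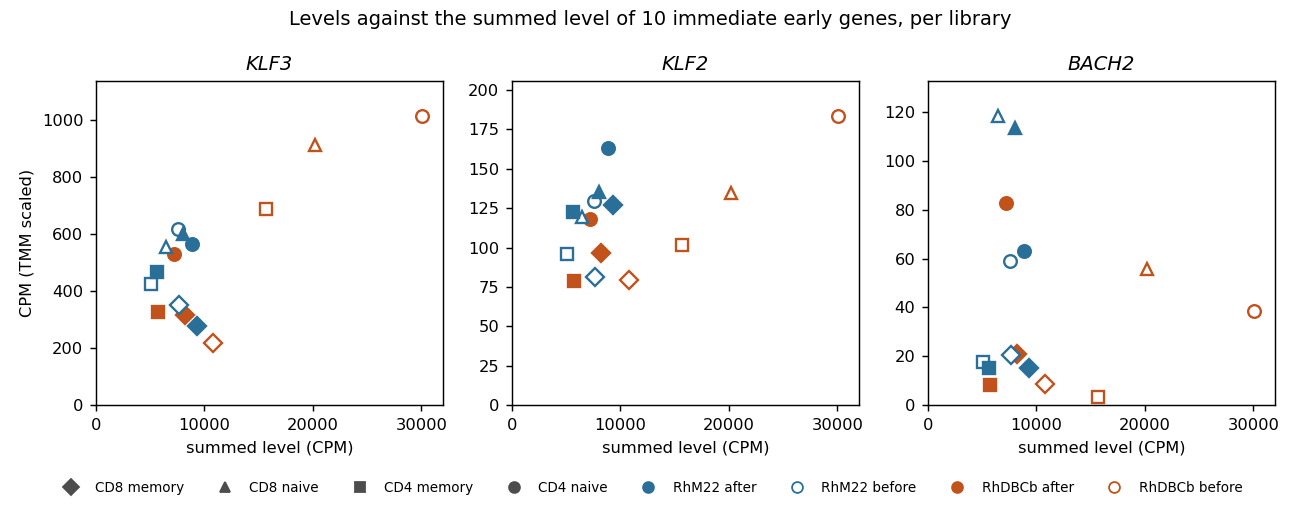
Level of KLF3, KLF2 and BACH2 (CPM) against the summed level of 10 immediate early genes (CPM) in each of 15 libraries, with filled points after and open points before treatment and the symbol giving the subset. The 4 open orange points, RhDBCb before, lie at 10829.8 to 30030.4 CPM and the other 11 libraries at 5102 to 9286 CPM.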

How the data were processed

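Both deposited units have 1 column per library. The authors' expected counts were estimated with RSEM 1.3.3 after cutadapt 1.18 and STAR 2.7.6a, per the submitters' processing notes, which name the builds Mmul_10 and rheMac10. The deposited FPKM values were not used to compare genes. The length behind them tracked the genomic span of a gene (r = 0.891 with RefSeq spans over 12260 genes), so levels are compared within a gene only. Per the labels, libraries were made from polyadenylated RNA with the SMART-Seq v4 kit, whose reads carry no strand. SATB1, FOXP1, ID3 and KLF3 each overlap 1 uncharacterised locus in RefSeq genes of another build than that of the counts. Reads from such overlaps cannot be assigned with certainty. None of these loci had a row under its name among the counts, and the effect on the counts was not tested.

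Expected counts were rounded to whole numbers, moving a library total by at most 26.1. Of the gene symbols 23407 stood in the deposited rows and 933 more were looked up by gene ID. Genes were kept by edgeR's filterByExpr with a minimum count of 10, leaving 14814, and the 9 genes held 190 to 110411 counts a library. Differences were tested with edgeR 4.0.16 (quasi-likelihood F test, TMM factors, R 4.3.3), with Benjamini-Hochberg adjustment across the tested genes and calls at an adjusted p under 0.05. The SE is the absolute log2 fold change divided by the square root of F. Subset contrasts, averaged over both times, and single-subset changes, after minus before, came from 8 subset-by-time groups plus animal. The change over all subsets came from subset, animal and time, and the changes within animals from subset and animal by time. Each group holds 1 or 2 libraries, so all libraries share 1 estimate of the spread. Libraries of 1 draw share an animal and a time, so they are not fully independent, and p-values over 2 animals measure little of the spread between animals.

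Libraries of an animal carry its name in the labels and are paired by it. Deviations from the group means correlated at 0.195 to 0.501 between them in all 7 groups with both animals. No libraries were near-copies (highest r 0.984). The scripts were tested on simulated counts. Alternatives were DESeq2 1.42.0, its size factors in edgeR, no filter, no animal block, before libraries only, subset and draw as terms, and leaving out each library. Leaving out the 4 before libraries of RhDBCb together was chosen after seeing the data.

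All 9 genes are named in the comparisons. Genes most like each were the 2 with the highest Pearson r of log2 CPM (prior count 2) over 15 libraries among named genes with a mean CPM of at least 5. Up to 2 called genes per direction and list were named by fold change, and CCR7, FOXO1, CD69, S100A4, and ID2 and KLF10 in CD8 cells, were chosen after their values were seen. Some genes are not reported here. The genes and lists were chosen with earlier results of these data known, so their counts are descriptions.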

Additional observations from a re-analysis of the deposited data

Results flagged for a closer look

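TCF7 in CD4 naive cells of RhM22 after treatment stood at 124.5 CPM, far from the other 3 CD4 naive libraries, which lay at 84.0 to 86.2 CPM. It was the 1 value to stand apart in this way among 27 sets of 4 libraries examined, 1 for each gene and each subset with 4 libraries. Chance sets 1 value apart in about 20 such sets. The CD8 naive after library of the same animal and draw held 121.5 CPM of TCF7.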

How the results depend on the processing

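Calls of BACH2 and SATB1 in memory over naive cells of both lineages, and of LEF1 in CD8 cells, held in every fit that left out 1 library. Of 9 genes, the number called in CD8 memory over naive was 5, and 3 to 5 with 1 library left out. It was 2 in CD8 memory against CD4 memory cells (0 to 2), 0 for animal by time (0 to 2) and 1 in RhDBCb (0 to 2). In CD4 memory over naive the 3 calls became 1 without the replicate block, 0 with before libraries only and 5 with subset and draw as terms. With before libraries only, 3 of the 9 were called in CD8 memory over naive and 0 in CD8 memory against CD4 memory cells, a count that was also 0 without the replicate block and without the 4 before libraries of RhDBCb. Subset and draw as terms called 1, S1PR1, in CD8 naive against CD4 naive cells. DESeq2 called 2 of the 9 over all subsets, 2 for animal by time and 1 in RhM22, beside 1.73%, 11.3% and 1.67% of all genes. It also called 2 in RhDBCb, and no filter called 1 for animal by time. The numbers of all genes called with DESeq2, no block, before libraries only and draw as a term close this section. Without the block, which pairs libraries by animal, the adjusted p lay at 0.115 for SATB1 and 0.0997 for FOXP1 in CD4 memory over naive and at 0.0635 for KLF3 in CD8 memory over naive, and besides these and LEF1 and S1PR1 in CD8 memory against CD4 memory cells no call of the 9 changed in the subset and subset-by-time comparisons. Using DESeq2's size factors in edgeR changed no count of the 9. Leaving out 1 library also added calls. With that of CD8 memory cells of RhM22 after left out, TCF7 was called in CD4 memory over naive (adjusted p = 0.0494). With that of CD8 memory cells of RhDBCb before left out, KLF3 was called in RhDBCb (-0.91, adjusted p = 0.00149) and KLF2 (0.0202) and KLF3 (0.0115) for animal by time, as was BACH2 without the CD4 memory after library of RhDBCb (0.0237) or RhM22 (0.0448). For each of these changes the cause was not tested.

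The directions that turned were of values that did not pass. With 1 library left out, the log2 fold change ranged as follows, with a lone library of a group assumed to vary like the others. For CD8 naive against CD4 naive cells the values ran for TCF7 from -0.12 to 0.075, LEF1 from -0.54 to 0.020 and KLF3 from -0.19 to 0.21. For CD8 memory against CD4 memory cells the values ran for TCF7 from -0.12 to 0.036 and KLF2 from -0.21 to 0.11. For the lineage difference in memory over naive the values ran for TCF7 from -0.13 to 0.059, BACH2 from -0.30 to 0.67 and KLF2 from -0.050 to 0.32. For CD4 memory over naive the values ran for ID3 from -0.53 to 0.058. After against before over all subsets the values of LEF1 ran from -0.24 to 0.037 and ID3 from -0.19 to 0.078. After against before in CD8 memory cells the values of LEF1 ran from -0.46 to 1.15, BACH2 from -0.30 to 1.13, FOXP1 from -0.24 to 0.00034, ID3 from -0.68 to 0.31 and KLF3 from -0.38 to 0.60. In CD4 memory cells the values of LEF1 ran from -0.44 to 0.14, BACH2 from -0.38 to 1.55, SATB1 from -0.45 to 0.0088, ID3 from -0.39 to 0.75 and KLF2 from -0.30 to 0.30. In CD4 naive cells the values of LEF1 ran from -0.68 to 0.37, BACH2 from -0.082 to 1.25, SATB1 from -0.30 to 0.18, FOXP1 from -0.31 to 0.053, ID3 from -0.38 to 0.31 and KLF2 from -0.50 to 0.20. After against before in RhM22 the values of LEF1 ran from -0.18 to 0.37, BACH2 from -0.39 to 0.095, SATB1 from -0.16 to 0.035 and KLF3 from -0.14 to 0.083. In RhDBCb the values of FOXP1 ran from -0.17 to 0.021 and ID3 from -0.063 to 0.61.

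Without the replicate block TCF7 was 0.016 and KLF3 was -0.012 for CD8 naive against CD4 naive cells and BACH2 was -0.20 for the lineage difference in memory over naive. With before libraries only KLF3 was -0.16 for CD8 naive against CD4 naive cells and TCF7 was 0.056 and BACH2 was -0.20 for the lineage difference in memory over naive. With subset and draw as terms KLF3 was -0.050 for CD8 naive against CD4 naive cells and TCF7 was 0.033 and BACH2 was -0.056 for the lineage difference in memory over naive. Without the 4 before libraries of RhDBCb TCF7 was 0.10 and KLF3 was -0.015 for CD8 naive against CD4 naive cells, BACH2 was -0.46 for the lineage difference in memory over naive, LEF1 was 0.082 and BACH2 was -0.16 after against before over all subsets, LEF1 was 0.40, SATB1 was 0.18 and KLF2 was 0.34 after against before in CD4 naive cells, LEF1 was 0.20 and BACH2 was -0.58 after against before in CD4 memory cells and LEF1 was -0.25, BACH2 was -0.17 and KLF3 was -0.15 after against before in CD8 memory cells. With no filter ID3 was 0.0073 after against before in CD4 naive cells.

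Counts over all genes moved more. Memory over naive called 1245 genes in CD8 cells (2258 in DESeq2, 427 without the block, 484 with before libraries only, 2448 with draw as a term, 760 without the 4 before libraries of RhDBCb, 758 to 1208 with 1 library left out) and 830 in CD4 cells (1648, 238, 165, 1708, 496, 427 to 896). CD8 against CD4 called 603 in memory cells (1252, 179, 143, 1221, 372, 301 to 610) and 247 in naive cells (560, 102, 120, 499). The lineage interaction called 3 (86 in DESeq2, 13 with draw as a term, 0 without the block, with before libraries only and without the 4 libraries). After against before called 1 over all subsets (177 in DESeq2, 0 without the block, 11 without the 4 libraries, 0 to 3 with 1 left out), 0 in CD4 naive cells (9 in DESeq2), 9 in RhM22 (248 in DESeq2, 0 to 12) and 1499 in RhDBCb (2519, 225 to 2188), and animal by time called 679 (1671, 99 to 1314). The 9 genes held at least 190 counts a library, and precision is limited by 2 animals and 4 draws. Without the CD8 naive after library of RhM22 no CD8 naive contrast could be fitted. The before-only and draw settings apply to subset contrasts only.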
